A study of Bos taurus with 6 samples.

Results

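The transcripts described here are those with a bright signal on every array of a study of day-7 bovine blastocysts. Members were chosen on the measured values: a probe set had to read at least 5 on the log2 scale on each of the 6 arrays, carry 1 gene symbol in the platform annotation, and lie outside the families whose symbols begin with RPL, RPS, EEF, EIF, NDUF, COX, UQCR, ATP5, MRPL, MRPS, PSM, SRSF, HNRNP or HSP. Of the 24016 probe sets that are not Affymetrix controls, 204 passed the brightness floor on all arrays. Of these, 60 had no symbol, 1 had several, and 34 belonged to the named families, among them 12 of the RPL and 5 of the RPS family. The remaining 109 probe sets, which stand for 108 of the 9155 genes that have a probe set with 1 symbol, are the members and make up 0.852% of the 12791 probe sets with 1 symbol outside those families. Because the levels chose the members, levels and ranks are given as descriptions without a test.

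The samples were blastocysts from Simmental heifers, with 3 arrays per group. The superovulated group grew until day 7 in the tract of heifers that had been synchronized, superovulated and artificially inseminated. The synchronized group came from donors treated in the same way, but its embryos were flushed on day 2 at the 2-cell stage and moved by endoscope into recipients that had been synchronized only, where they stayed until day 7. Both groups thus come from superovulated donors, and only the synchronized group was flushed on day 2 and transferred. The number of embryos per array, and whether each array holds its own animals or collection, are not given in the sources used here. P-values therefore describe array-to-array spread alone, and this may be technical. In whole embryos, fewer cells of a type and less RNA per cell cannot be told apart.

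A blastocyst consists of the trophectoderm, an epithelium that pumps fluid into the cavity and later forms the placenta, and of the inner cell mass, which gives rise to the embryo proper. At this stage the embryo transcribes its own genome, divides rapidly, and builds ribosomes, chromatin, cytoskeleton and membranes, so transcripts for these general tasks are abundant. An array signal also depends on how well the probes of a set bind. The rank of a probe set therefore orders signals and not transcript numbers, and ranks are compared here only for the same probe set between arrays.

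The arrays differed in how many probe sets were bright. Between 709 and 948 probe sets reached log2 5 on the superovulated arrays, whereas 303, 902 and 483 did so on synchronized arrays 1 to 3. Synchronized array 1 set the floor most often: it was the lowest array for 60 of the 109 members, and with that array left out of the rule 182 probe sets would have been members. Blastocyst markers did not all give a signal. KRT18, a trophectoderm keratin, read 7.96, 8.11 and 7.74, then 3.55, 3.68 and 4.90 in the synchronized group, and so was no member. KRT8 and SOX2 lay between 2.27 and 2.44 on all arrays, POU5F1 did not exceed 3.54, and CDX2, GATA3, IFNT and NANOG had no probe set under those symbols. Of 15 measured blood and immune markers, 0 had a mean above log2 4.

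Members spanned a wide range above the floor. The mean over the 6 arrays was 8 or more for 19 probe sets, between 6 and 8 for 66 and below 6 for 24, with a median of 6.82. The members' median signal on superovulated arrays 1 to 3 was 6.93, 7.26 and 7.34, and on the synchronized arrays it was 5.73, 6.53 and 6.51. Every superovulated array thus had a higher median than every synchronized array. Just inside the floor lay ZC3H14, ACTN1 and TSPYL1, the first at the floor itself and the others with lowest values of 5.01 and 5.02. Just outside lay LOC511425, TIMP1 and ITGB1, each with a lowest value of 4.99. ITGB1 was held back by synchronized array 1 alone, since its other arrays read 6.77 to 8.96.

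**Figure D1:**
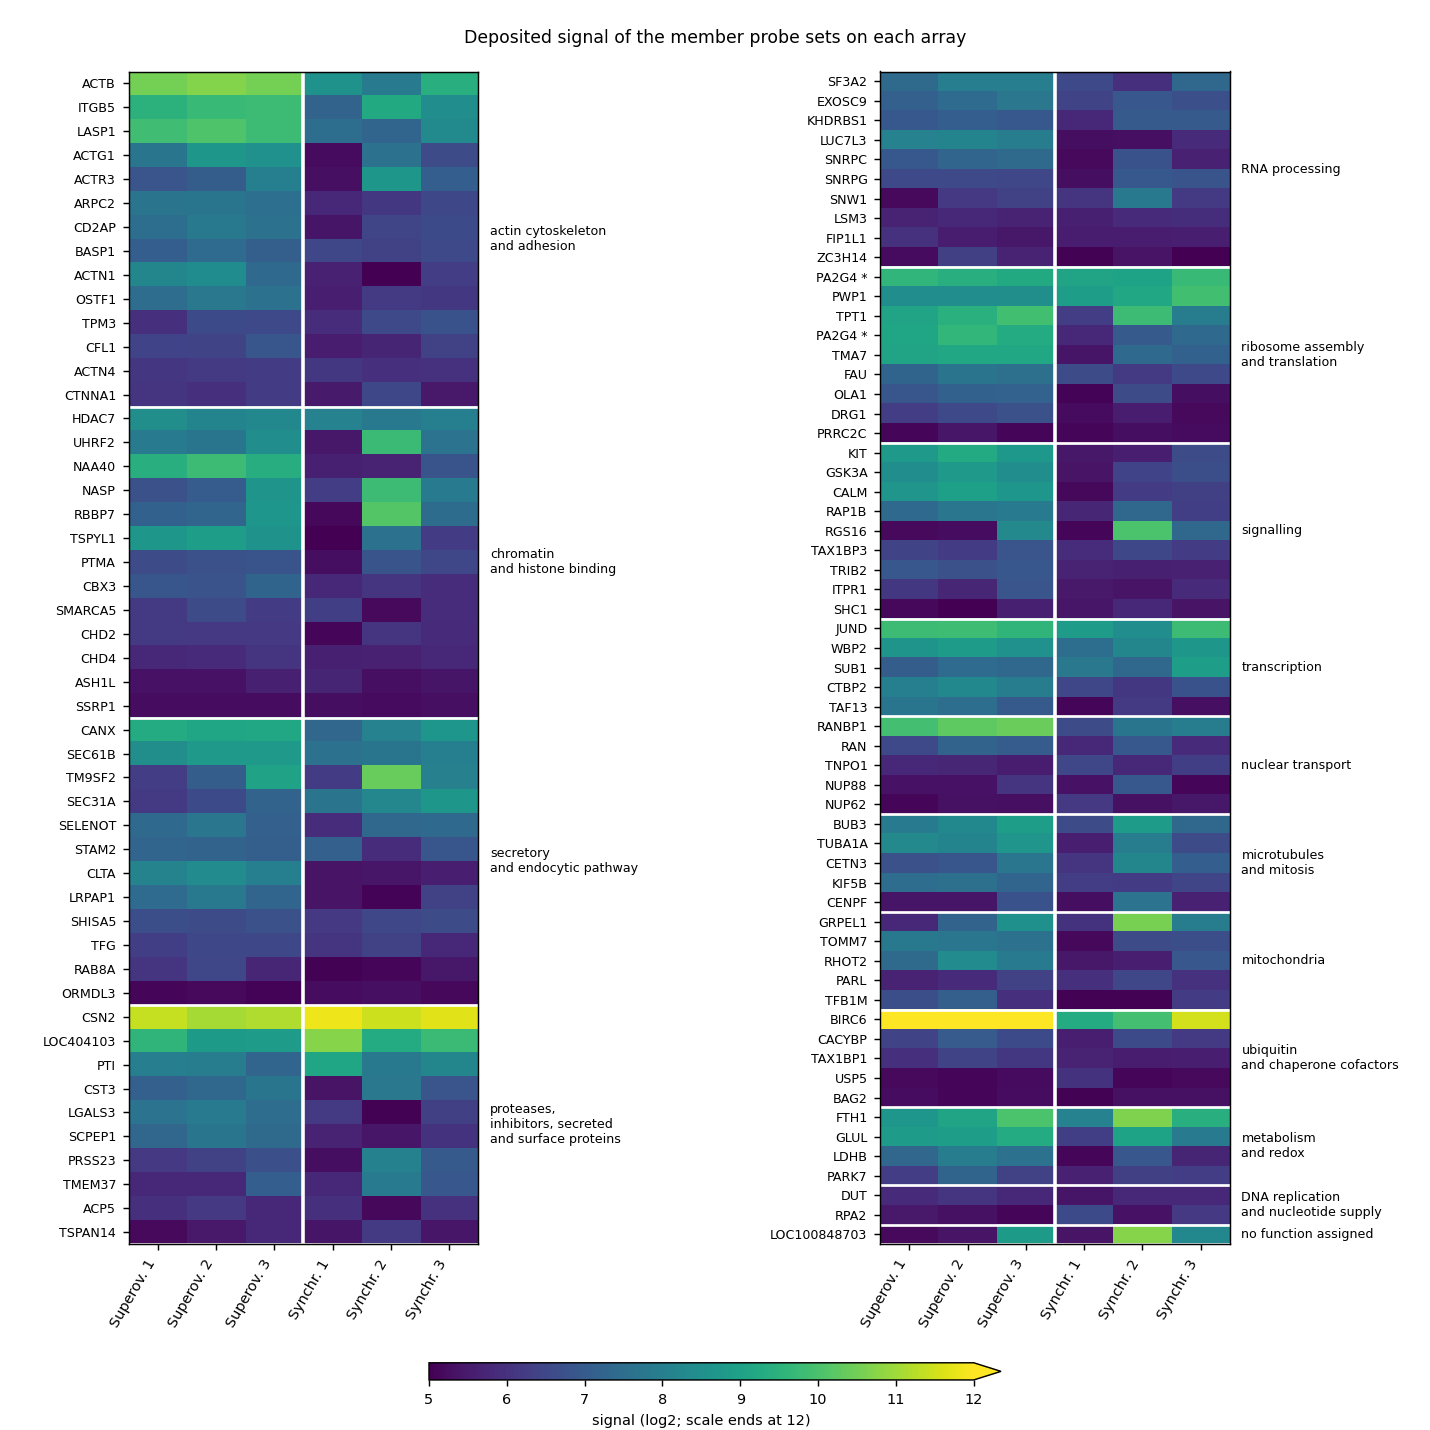
Colour shows the deposited log2 signal of each member probe set (rows, grouped by function and ordered by mean) on the 3 superovulated and the 3 synchronized arrays (columns); PA2G4, marked with an asterisk, has 2 member probe sets. The scale ends at 12, which only BIRC6 exceeded, and synchronized array 1 is the lowest array for 60 of the 109 members.

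BIRC6 and CSN2 were the brightest members. BIRC6 encodes a very large ubiquitin-conjugating enzyme of the inhibitor of apoptosis family. Its probe set read 13.75, 13.64 and 13.38 on the superovulated and 9.31, 9.92 and 11.51 on the synchronized arrays. Among all non-control probe sets it ranked 1, 1 and 2 with superovulated and 7, 20 and 3 with synchronized embryos. The groups did not overlap, but the difference of 3.34 (95% interval 1.80 to 4.88) did not pass by limma (adjusted p = 0.144).

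CSN2 encodes beta-casein, a major protein of milk. Its member probe set read 11.39, 11.07 and 11.16 on the superovulated and 11.81, 11.48 and 11.68 on the synchronized arrays, and it ranked between 1 and 5 on every array. The other probe sets of CSN2 lay near background, at means of 2.50 and 3.23. The other casein genes with a probe set, CSN1S1, CSN1S2 and CSN3, did not exceed 3.31 on any array, and LALBA, which encodes the milk protein alpha-lactalbumin, did not exceed 2.41. The bright CSN2 probe set carries the suffix that Affymetrix gives to sets with probes that may bind unrelated transcripts. Whether it reads beta-casein in these embryos was not tested.

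Below these came ACTB, LOC404103 and JUND. ACTB, cytoplasmic beta-actin, read 10.54, 10.70 and 10.54, then 8.56, 7.91 and 9.39, with the superovulated arrays given first here and below. LOC404103 is listed with the synonyms BPTI and SI in the RefSeq gene table and read 9.57, 8.82 and 8.86, then 10.72, 9.32 and 9.76. JUND, a subunit of the AP-1 transcription factor, read 9.80, 9.82 and 9.57, then 8.83, 8.43 and 9.79. ACTB was higher on each superovulated array than on any synchronized array, whereas the groups overlapped for LOC404103 and JUND.

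The 20 members with the highest mean kept high but not fixed ranks. ITGB5, an integrin beta chain, was among the steadiest in rank, between 22 and 42 on all arrays, and a PA2G4 probe set lay between 10 and 41. WBP2, a WW domain-binding transcriptional coactivator, lay between 22 and 88. PTI, a pancreatic trypsin inhibitor, ranged from rank 9 on synchronized array 1 to rank 210 on superovulated array 3. LASP1, an actin-binding LIM and SH3 protein, ranged from 16 on superovulated array 2 to 174 on synchronized array 2. Ranks move with the number of bright probe sets, so a member can gain rank on synchronized array 1 without a higher signal. Over all members the median rank was 142 and 151 on synchronized arrays 1 and 3 and 295 on synchronized array 2, against 198 to 204 on the superovulated arrays.

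**Figure D2:**
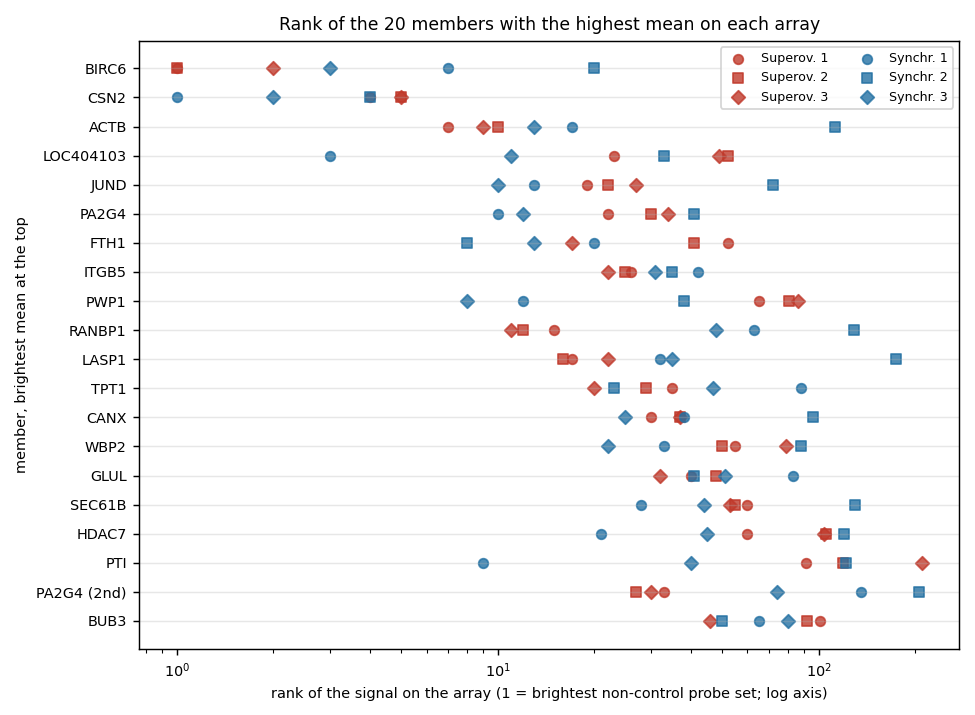
Each row is one of the 20 members with the highest mean, the horizontal log axis gives its rank among the 24016 non-control probe sets of an array (1 is the brightest), and each symbol is 1 array (red superovulated, blue synchronized). BIRC6 and CSN2 lie at rank 20 or better on every array, while LASP1 and PTI span ranks from 16 to 174 and from 9 to 210.

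A gene was often bright on only 1 of its probe sets. Of the 108 member genes, 55 had at least 1 further probe set that was no member, 94 in all. For 48 of these 55 genes every further probe set had a mean below log2 4, for 4 the brightest lay between 4 and 5, and for 3 it reached at least 5. The median gap between the member and the brightest further probe set was 3.35. The 3 genes with a second bright probe set were BIRC6, TPT1 and ITPR1. For BIRC6 the second set read 7.54, 8.01 and 7.73, then 4.03, 5.32 and 5.41, and so shared the lower synchronized values of the first. TPT1, which encodes the translationally controlled tumour protein, had a further set at 6.93, 7.36 and 7.17, then 3.37, 7.10 and 5.24, also lowest on synchronized array 1. The second set of ITPR1, a calcium release channel, read 6.20, 6.27 and 6.44, then 4.20, 4.58 and 4.37, and was called higher by limma (difference 1.92, adjusted p = 0.0167). The ITPR1 member itself read 6.13, 5.76 and 6.84, then 5.48, 5.38 and 5.84, with overlap and no call (0.68, limma adjusted p = 0.636).

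Further probe sets of JUND, RANBP1, ITGB5 and LOC404103 did not exceed means of 2.95, 2.85, 2.65 and 2.44, against 9.37, 8.82, 8.99 and 9.51 for their members. KIT, the receptor for stem cell factor, read 8.80, 9.27 and 8.72, then 5.46, 5.60 and 6.63 on its member, and means of 2.48 to 2.84 on the others. Which probe set reads the gene's transcript more faithfully was not tested. Among the members, 7 probe sets had the suffixes for sets shared between transcripts or with possible cross-binding.

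**Figure D3:**
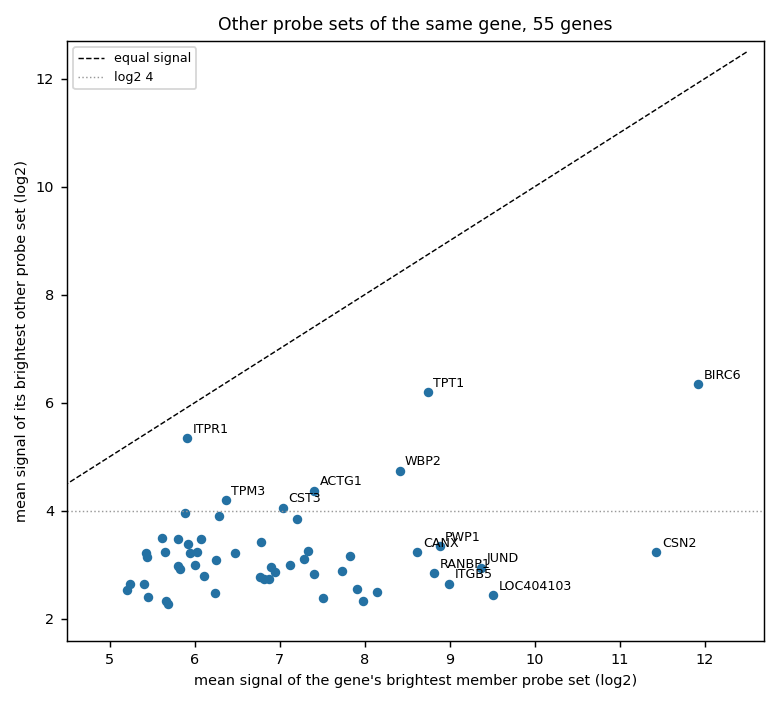
Each point is 1 of the 55 member genes with a further probe set; the horizontal axis gives the mean log2 signal of its brightest member and the vertical axis that of its brightest other probe set, with a dashed line of equal signal and a dotted line at log2 4. Most points, 48 of 55, lie below the dotted line, and BIRC6, TPT1 and ITPR1 reach at least 5.

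By function, the actin cytoskeleton and cell adhesion formed the largest group, with 14 members. Next came chromatin and histone binding (13), the secretory and endocytic pathway (12), RNA processing (10), proteases, inhibitors, secreted and surface proteins (10), ribosome assembly and translation (9 probe sets of 8 genes) and signalling (9). Transcription, nuclear transport, microtubules and mitosis, mitochondria, and ubiquitin with chaperone cofactors had 5 each, metabolism and redox 4, and DNA replication with nucleotide supply 2. LOC100848703, a long noncoding RNA in the RefSeq gene table, was left without a function. These groups were formed after the members' names were seen. Members also appeared in 20 of 27 gene lists drawn up from textbook knowledge. The nucleolar list, the lipid list and 5 lists for oocyte, cumulus, oviduct, blood, and inner cell mass with primitive endoderm had 0 members.

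Among actin genes, both cytoplasmic actins were members. ACTG1, gamma-actin, read 7.73, 8.71 and 8.54 on the superovulated and 5.21, 7.65 and 6.59 on the synchronized arrays. ACTR3 and ARPC2 belong to the complex that nucleates branched actin filaments, CFL1 (cofilin) severs filaments, TPM3 (tropomyosin) coats them, and ACTN1 and ACTN4 cross-link them. ARPC2 read 7.70, 7.72 and 7.57, then 5.81, 6.13 and 6.51, while ACTN1 read 8.22, 8.40 and 7.38, then 5.63, 5.01 and 6.27. ACTN4 hardly varied, between 5.96 and 6.23 on all arrays. Its paralogue ACTN1 differed between the groups by 2.36, which did not pass by limma (adjusted p = 0.153), where ACTN4 differed by 0.15. Further ACTN1 probe sets, at means of 2.73 and 2.62, differed by -0.01 and -0.06. The list of 44 actin genes had 38 measured, of which 18 had a mean above log2 4, 8 were members, and 0 were called in either direction by limma. CTNNA1, alpha-catenin of adherens junctions, was at 5.49 to 6.53 on all arrays. CD2AP, an adaptor of actin and membrane traffic, read 7.53 to 7.83 and then 5.39 to 6.56.

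The chromatin members ranged from mean 8.14 for HDAC7, a class IIa histone deacetylase, to 5.24 for SSRP1, a subunit of the histone chaperone FACT. HDAC7 read 8.47, 8.16 and 8.28, then 8.09, 7.83 and 8.02. The remodelling ATPases CHD4, CHD2 and SMARCA5 had means of 5.80, 5.92 and 6.07. NASP and RBBP7, which bind and chaperone histones, and UHRF2, a ubiquitin ligase that reads methylated chromatin, were all highest on synchronized array 2, at 9.80, 10.12 and 9.76. In the list of histones, histone chaperones and HMG proteins 29 of 48 genes were measured, 5 were members (PTMA, NASP, SSRP1, CBX3 and RBBP7) and 0 were called by limma.

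In the secretory group, CANX (calnexin, a lectin chaperone of the endoplasmic reticulum) read 9.30, 9.15 and 9.17, then 7.32, 8.09 and 8.67. SEC61B, a subunit of the channel through which proteins enter the endoplasmic reticulum, read 8.47, 8.78 and 8.78, then 7.64, 7.72 and 8.03. SEC31A, an outer-layer protein of the vesicles that leave the endoplasmic reticulum, had the largest difference among the members that were lower in the superovulated group without overlap, at 6.18, 6.57 and 7.23 against 7.69, 8.24 and 8.70. The groups did not overlap for any of these, though none of the differences passed by limma (adjusted p = 0.522, 0.112 and 0.336). Of the list for folding and translocation in the endoplasmic reticulum, 41 of 47 genes were measured, and the list had 2 members. A single gene of that list, the non-member CLGN, was called lower by limma.

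Ribosome and translation members included PA2G4, a growth regulator bound to ribosomes. Its probe sets disagreed on the synchronized arrays. The brighter read 9.60, 9.41 and 9.25, then 9.10, 9.07 and 9.75, whereas the other read 9.14, 9.63 and 9.32, then 5.78, 6.97 and 7.40. TMA7, a small translation machinery-associated protein, read 9.09, 9.21 and 9.21, then 5.41, 7.38 and 7.17. FAU, whose product is processed into a small-subunit ribosomal protein, read 7.25, 7.70 and 7.59, then 6.59, 6.20 and 6.54. PWP1, a WD-repeat protein of ribosome production, lay the other way, at 8.42, 8.44 and 8.45, then 8.90, 9.16 and 9.88. It was 1 of 3 members, with CSN2 and SEC31A, for which every superovulated array was lower than every synchronized array.

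Members of RNA processing included SNRPC and SNRPG of the spliceosomal snRNPs, the U2-associated SF3A2, LSM3, the exosome subunit EXOSC9 and FIP1L1 of the polyadenylation machinery. Their means lay between 5.43 for ZC3H14, which binds poly(A), and 7.21 for SF3A2. Nuclear transport was represented by RAN, the GTPase that drives it, its cofactor RANBP1, the import receptor TNPO1 and the pore proteins NUP62 and NUP88. RANBP1 read 9.90, 10.27 and 10.41, then 6.62, 7.73 and 7.96, a difference of 2.76 that did not pass by limma (adjusted p = 0.0828). RAN itself read 6.55, 7.22 and 7.04, then 5.77, 6.94 and 5.85, with overlap. The nuclear transport list had 19 of 25 genes measured, 4 members and 0 calls.

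Among metabolic members, FTH1, the heavy chain of the iron store ferritin, read 8.67, 9.09 and 10.02, then 8.10, 10.65 and 9.39. GLUL, glutamine synthetase, read 8.85, 8.89 and 9.30, then 6.31, 9.07 and 7.88. LDHB, a lactate dehydrogenase subunit, read 7.30, 7.94 and 7.60, then 5.13, 6.90 and 5.73. The groups overlapped for FTH1 and GLUL and not for LDHB. Mitochondrial members were the import protein TOMM7, the motor adaptor RHOT2, the rhomboid protease PARL, the ribosomal RNA methyltransferase TFB1M, and GRPEL1, the nucleotide exchange factor of the matrix HSP70.

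The secreted and surface group held both Kunitz-type trypsin inhibitor genes of the set, PTI and LOC404103. In the RefSeq gene table they lie on the same chromosome with 3 other genes starting between them. PTI read 7.99, 7.98 and 7.29, then 9.12, 7.82 and 8.20, so both inhibitors were highest on synchronized array 1. The platform annotation gives the PTI member and the dim second probe set of LOC404103 the same source sequence, so the assignment of that signal to PTI is uncertain. CST3, the cysteine protease inhibitor cystatin C, read 7.14 to 7.71 and then 5.36 to 7.81. LGALS3, galectin-3, which the trophectoderm list also holds, read 7.67, 7.89 and 7.51, then 6.19, 5.03 and 6.32.

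The other lists that held members had few of them, so most of the genes that limma could call were no members. Over all 24016 probe sets limma called 0.695% higher and 0.0208% lower. In the splicing list 62 genes were measured, 4 were members (SNRPC, SNRPG, LSM3 and KHDRBS1), and the calls were the non-members CPSF3 and CPSF6, both higher. The epithelial and trophectoderm list had 28 measured genes, the members CTNNA1 and LGALS3, and KRT18 and DAB2 called higher. The redox list had 30 measured, the members SELENOT, FTH1 and PARK7, and PRDX1 called higher. The translation control list had 21 measured genes, 4 members and 0 calls. Cell cycle and DNA replication had 45 measured genes, the members BUB3, DUT and RPA2, and CDK1 called higher. BUB3, a protein of the spindle checkpoint, was the brightest of these 3 members with a mean of 7.98. Transcription and stress regulators had 39 measured genes, the members JUND and SUB1 and 0 calls. Further members were RAP1B, a small GTPase, in the signalling list (7.40, 7.75 and 7.86, then 5.74, 7.33 and 6.31), CACYBP in the ubiquitin list and RAB8A, a GTPase of vesicle transport. CACYBP, which binds calcyclin, had a mean of 6.40, and RAB8A one of 5.65. None of these 3 was called by limma.

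The superovulated and synchronized groups were then compared, since the study addressed the influence of the oviductal environment on the blastocyst transcriptome. The rule did not use the groups, but its floor on every array limits how low a member can be in either. Across all 24016 probe sets limma called 0.716%, of which 0.695% were higher and 0.0208% lower in the superovulated group, at an adjusted p below 0.05. Among the members 8 of 109 (7.34%) were called higher and 0 lower. At an unadjusted limma p below 0.05 the counts were 44 and 3. How many of all probe sets reached that unadjusted level was not counted, here or in the alternative runs. Of the 492 other probe sets with a mean of at least 5, 8.13% were called higher and 3 lower. These others needed only a mean of at least 5, so they could be low on synchronized arrays in a way the members could not. That choice favours calls higher in the superovulated group, so their share is no like measure for the members.

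The 8 genes that rose cover different functions. NAA40, which acetylates the N-termini of histones H4 and H2A, read 9.38, 9.79 and 9.37 on the superovulated and 5.61, 5.69 and 6.83 on the synchronized arrays. It rose by 3.47 (95% interval 2.50 to 4.44, limma adjusted p = 0.0433). CLTA, a clathrin light chain, read 8.13, 8.38 and 8.03, then 5.36, 5.43 and 5.59, a rise of 2.72 (2.43 to 3.01, limma adjusted p = 0.00941). LUC7L3, which associates with the U1 snRNP, read 8.09, 8.17 and 7.98, then 5.25, 5.30 and 5.86, a rise of 2.61 (2.14 to 3.08, limma adjusted p = 0.0190). In each case all superovulated arrays lay well above all synchronized arrays.

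The other rises were smaller. SCPEP1, a serine carboxypeptidase, rose from 5.72 ± 0.30 to 7.48 ± 0.22 (SD, n = 3), and OSTF1, an SH3-domain adaptor, from 5.97 ± 0.33 to 7.65 ± 0.14. The corepressor gene CTBP2 rose from 6.46 ± 0.32 to 8.10 ± 0.16. TRIB2, a pseudokinase, rose from 5.64 ± 0.03 to 6.84 ± 0.10, and KIF5B, the heavy chain of kinesin-1, from 6.32 ± 0.12 to 7.46 ± 0.16. By limma the adjusted p was 0.0438, 0.0444, 0.0457, 0.00941 and 0.0323 in that order. Further probe sets of TRIB2 had means of 2.48 and 2.45, and that of LUC7L3 had 2.78. Their differences were -0.02, -0.01 and 0.04, so these dim sets did not show the rise. In the microtubule list KIF5B was the single call among 15 measured genes, and in the vesicle transport list CLTA and the non-member RAB18 were the calls among 47.

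These calls rested on the choice of arrays and of variance model. CLTA and TRIB2 passed without any single array, whereas without superovulated array 1, 2 or 3 they alone remained. In those runs 0.325%, 0.108% and 0.225% of all probe sets were called. Without synchronized array 1, 2 or 3 in turn, 0.25%, 0.57% and 0.192% of all probe sets were called. Among the members 6, 3 and 7 were called, of which 3, 2 and 4 were among the 8. The others were CALM, TMA7 and TOMM7 without array 1, OLA1 without array 2, and BIRC6, KIT and LASP1 without array 3. With an intensity trend in limma 0 members passed (39 higher and 3 lower at an unadjusted p below 0.05, lowest adjusted p = 0.0542), and after a second quantile normalization 0 passed (18 higher and 14 lower unadjusted). Of all probe sets 0.208% and 0.117% were called in these runs. All 8 kept a difference above 0 in every alternative run, down to 0.04 for KIF5B and 0.20 for TRIB2.

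Some members that were not called had differences within the size range of the calls. KIT differed by 3.03 (2.09 to 3.98, limma adjusted p = 0.0545) and CALM, calmodulin, by 2.86 (1.96 to 3.76, limma adjusted p = 0.0560). GSK3A, a kinase of glycogen and Wnt signalling, differed by 2.40 (1.43 to 3.36, limma adjusted p = 0.100). None of these passed, although the groups did not overlap in any of them.

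**Figure D4:**
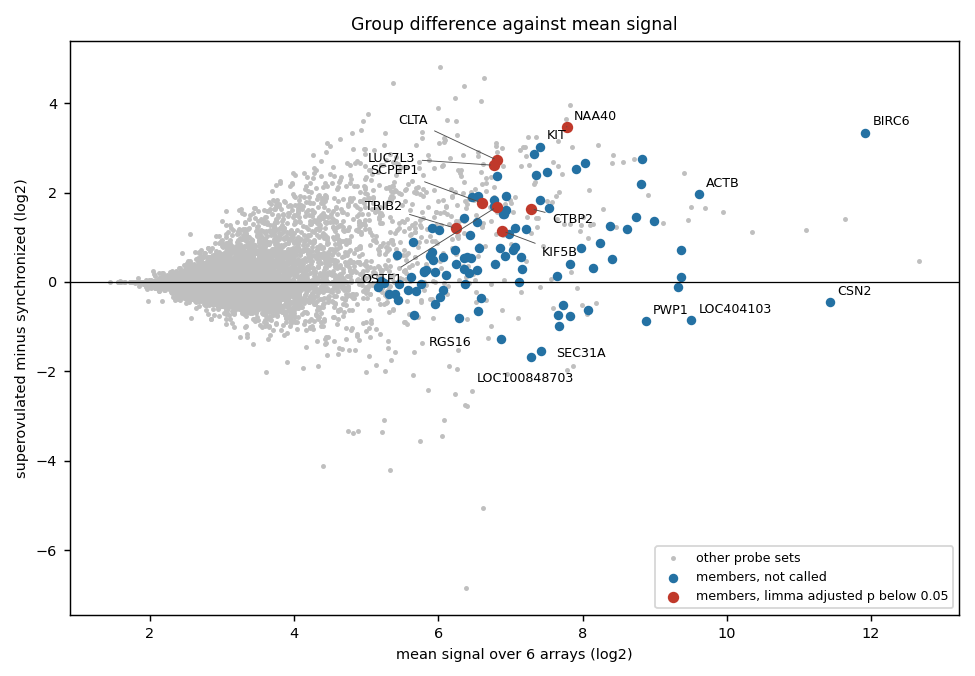
Each point is a probe set, with its mean log2 signal over 6 arrays on the horizontal axis and its log2 difference (superovulated minus synchronized) on the vertical axis; members are blue, the 8 called members red and all others grey. Members lie mostly above 0, with a median difference of 0.55, and SEC31A, RGS16 and LOC100848703 lie lowest.

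As a body, the members read higher in the superovulated group as deposited, with a median difference of 0.55, but this direction turned with the scaling. The median was -0.02 over all probe sets and 1.20 over the 492 other probe sets with a mean of at least 5. These 492 include the bright probe sets left out by symbol or family. Only 303 probe sets, the members among them, reached the floor on synchronized array 1, so most of the 492 missed it there. Such low synchronized values raise their differences. How many missed the floor on each array was not counted. Of the members, 79 differences were above 0 and 30 below. After a second quantile normalization the members' median was -0.42. After centring each array on its probe sets with a mean above log2 4, which moves the median of all probe sets by -0.70, it was -0.14. The groups did not overlap for 46 members that were higher and 3 that were lower in the superovulated group (42.2% and 2.75%), against 5.42% and 7.89% of all probe sets. Among the 492 other bright probe sets the shares were 51.2% and 5.08%. Their choice by mean allowed low synchronized values that the floor denied the members, so these shares are no like comparison. After quantile normalization the member counts were 20 and 16 (18.3% and 14.7%), against 10.1% and 3.8% of all probe sets and 37% and 9.35% of the other bright ones. After centring on bright probe sets they were 31 and 15 (28.4% and 13.8%), against 1.7% and 13.5% of all and 39.4% and 9.15% of the other bright ones.

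A set of 20 members was higher without overlap as deposited and under all 3 scalings tried: BIRC6, ACTB, ITGB5, RANBP1, LASP1, the dimmer PA2G4 probe set, TMA7, NAA40, TUBA1A, TSPYL1, KIT, ACTG1, GSK3A, CALM, CLTA, LUC7L3, LDHB, SNRPC, TAF13 and OLA1. PWP1 and SEC31A were lower without overlap under all of them. The 20 are 18.3% of the members, against 1.57% of all probe sets and 35.6% of the 492 other bright ones. Those 492 were chosen by mean and could be low on synchronized arrays, which favours their share. The 2 lower members are 1.83%, against 1.43% and 3.86%. Only NAA40, CLTA and LUC7L3 of these were called by limma on the deposited values.

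Function groups differed in how their median moved with scaling. The actin group had 13 of 14 differences above 0 as deposited (median 1.44), 8 after quantile normalization (0.42) and 10 after centring on bright probe sets (0.75), with 1 member called. The ribosome and translation, signalling and mitochondrial medians also stayed above 0, at 1.21, 1.20 and 1.16 as deposited and at 0.31, 0.14 and 0.27 after quantile normalization, with 0, 1 and 0 calls. The chromatin median turned from 0.39 to -0.57 and -0.30 under those scalings, and those of the secretory and RNA processing groups, 0.56 and 0.50, turned to -0.49 and -0.48 after quantile normalization. Medians of the nuclear transport and the protease and surface groups were below 0 throughout, at -0.21 and -0.27 as deposited. No test was made of these groups, and the ones with 5 or fewer members rest on few values.

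Over the members, the synchronized arrays were less alike than the superovulated arrays. The members' median SD was 0.63 among synchronized and 0.23 among superovulated arrays, and 89 of 109 members had the larger SD among the synchronized arrays. Whether other probe sets share this was not counted. Over all 6 arrays the median SD was 0.70. The range was under 1 log2 unit for 23 members and over 3 for 22.

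The steadiest members over all 6 arrays lay mostly near the floor. The rule favours this, since a dim probe set that varied more would have fallen below log2 5 and been left out. SSRP1 read 5.23, 5.23 and 5.22, then 5.26, 5.21 and 5.29, with an SD of 0.03. ORMDL3, a regulator of sphingolipid synthesis, had an SD of 0.08 around 5.17, and LSM3, a ring protein of RNA processing, an SD of 0.10 around 5.76. ACTN4 and the HSP70 cofactor BAG2 followed at 0.11, then PRRC2C (0.13), CHD4 (0.16), the histone methyltransferase gene ASH1L (0.18), FIP1L1 (0.20) and SHISA5 (0.21). Of these 10, ACTN4 and SHISA5 had means above 6. None of the group differences exceeded 0.26, but the choice by a small SD over all 6 arrays itself keeps them small. Among the 20 brightest members the SD was 0.22 for HDAC7, 0.27 for the brighter PA2G4 probe set and 0.29 for CSN2.

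The most variable members were of 2 kinds. BIRC6, NAA40, KIT, CALM and RANBP1, with SDs of 1.59 to 1.97, separated the groups. LOC100848703, RGS16, GRPEL1, RBBP7 and TM9SF2, with SDs of 1.65 to 2.32, instead were highest on superovulated array 3 and synchronized array 2. RGS16, a regulator of G protein signalling, read 5.19, 5.22 and 8.30, then 5.12, 10.03 and 7.36. LOC100848703 read 5.19, 5.37 and 8.81, then 5.38, 10.73 and 8.28. Both were near the floor on superovulated arrays 1 and 2 and synchronized array 1, high on superovulated array 3 and synchronized array 3, and highest on synchronized array 2.

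Counting over all members, 33 (30.3%) were highest on superovulated array 3 within their group and on synchronized array 2 within theirs, against 9.33% of all probe sets. The share among other bright probe sets was not counted, so the pattern cannot be called particular to the members. Over all probe sets, deviations of these arrays from their group means correlated at 0.688, the highest of any pair between the groups. In 8 members both arrays exceeded the others of their group by at least 1 log2 unit: TM9SF2, NASP, GRPEL1, RBBP7, LOC100848703, RGS16, TMEM37 and CENPF. GRPEL1 read 5.81, 7.24 and 8.51, then 6.02, 10.57 and 7.95. RBBP7 read 7.18, 7.27 and 8.69, then 5.15, 10.12 and 7.47. CENPF, a kinetochore protein of dividing cells, read 5.41, 5.41 and 6.76, then 5.26, 7.67 and 5.65. For all 8 the groups overlapped and none was called by limma on the deposited values. The spread within both groups by which they were chosen makes that outcome likely.

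The same arrays were the highest of their groups for the mean of 22 of the 27 gene lists. The exceptions were the epithelial, annexin, chaperonin, nucleolar and blood lists. The ubiquitin list, for example, averaged 3.54, 3.72 and 3.93, then 3.18, 4.03 and 3.50. Markers of the oocyte and of cumulus and granulosa cells were among the 22. The mean over the 20 cumulus and granulosa genes, 3 of which averaged above log2 4, was 3.12, 3.06 and 3.60 on the superovulated and 3.23, 3.86 and 3.37 on the synchronized arrays, and the summed log2 level ran from 61.28 to 71.97 and from 64.64 to 77.25. TNFAIP6 read 3.05, 2.99 and 7.38, then 4.25, 8.47 and 5.96. TNFAIP6 stands in the oocyte list too. INHA read 4.79, 4.85 and 6.64, then 4.85, 6.79 and 4.87, and PTX3 and INHBA, at 2.53 to 5.21, were also highest on both of these arrays within their groups. HAS2 ran the other way, at 3.78, 4.05 and 3.65, then 3.66, 3.44 and 3.58. The defining granulosa genes CYP19A1, FSHR and AMH stayed between 2.36 and 3.38. Over 11 measured oocyte and early embryo transcripts, 3 of them above log2 4, the mean was 2.98, 3.03 and 3.86, then 2.96, 4.57 and 3.38, with sums of 32.77 to 42.42 and 32.54 to 50.31. The part of these in the members' pattern was not tested.

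**Figure D5:**
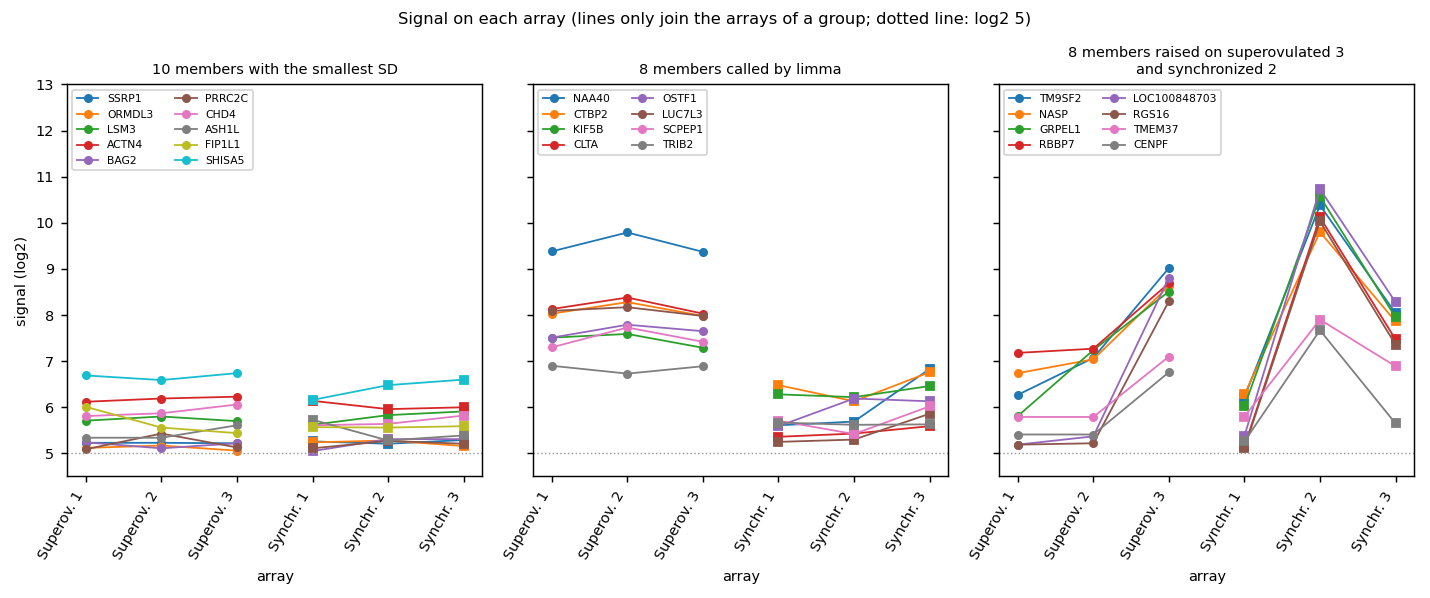
Each line is a member, with its log2 signal (vertical) on the 3 superovulated (circles) and 3 synchronized arrays (squares); lines only join arrays of a group, and the dotted line marks the floor of log2 5. The 10 members with the smallest SD are flat, the 8 called members lie higher on every superovulated array, and the 8 in the right panel peak at superovulated array 3 and synchronized array 2.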

How the data were processed

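The authors deposited 1 log2 expression value per probe set and array of the Affymetrix GeneChip Bovine Genome Array (3 superovulated, 3 synchronized arrays), made with GCRMA per the submitters' processing notes, version not stated. GCRMA subtracts background and compresses values near it. The sources used here do not give whether all arrays were normalized as 1 set. Detection calls were not analysed here. Per the labels' protocols, RNA from a kit for very small samples was amplified before hybridization.

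The 112 control probe sets were set aside. Symbols came from GEO's platform annotation, and all 108 member genes matched the ARS-UCD2.0 gene table by identifier, with 0 symbols changed. The group comparison used limma 3.58.1 under R 4.3.3 (group as the only term, two-sided, Benjamini-Hochberg over 24016 probe sets, call below 0.05). The array number, 3 per group, limits precision. The scripts were tested in 10 runs on simulated data with 200 bright probe sets changed in each. Limma called 5% of the changes of 1 log2 unit and 16.2% of those of 2. A gene that was not called can therefore still differ. Lists count each gene once, through the brightest of its probe sets.

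Members and lists were chosen with earlier results of these data known, so neither is independent support. Named were the 20 brightest members, the 10 with the smallest and the largest SD, all calls, up to 4 per list, those nearest the floor, and others by function, the last after their values were seen. Alternatives were other scalings, an intensity trend, dim probe sets left out, the replicate number as a block, and each array left out.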

Additional observations from a re-analysis of the deposited data

How the results depend on the processing

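The count of members that rose, 8 as deposited, was 7 after median centring, with 0 falls, and 0 after a second quantile normalization, 0 with an intensity trend and 0 with the replicate number as a block. Of all probe sets 0.716%, 0.62%, 0.117%, 0.208% and 0% were called in that order. No array number is known to pair the samples, and deviations of same-numbered arrays correlated at 0.542, -0.399 and -0.405. With the block the lowest adjusted p by limma was 0.106, and 49 members were higher and 5 lower at an unadjusted p below 0.05. Testing only probe sets with a mean above log2 4 gave 32 rises and 1 fall, where 31.4% of the tested probe sets were called. Centring on bright probe sets gave 14 rises and 12 falls, where 2.2% of all probe sets were called. Of the member calls, 3 were shared with the deposited values. Under this centring limma estimated the same variance for every probe set, and its calls include RGS16, whose groups overlap. Leaving out each array gave 2 to 7 rises and 0 falls, with 0.108% to 0.57% of all probe sets called. With members chosen again and tested without synchronized array 1, a setting added after the data were seen, 10 of 182 rose. In that run 0.25% of all probe sets were called. The median difference, 0.55, was -0.42 after quantile normalization, -0.14 after centring on bright probe sets and 0.39 to 0.69 with an array left out. The number of members, 109, was 342 at a floor of log2 4, 30 at log2 6, 134 after quantile normalization, 143 with the named families kept, and 110 to 182 with an array left out. No single called member changed sign in any alternative run. The cause of these changes was not tested. Without detection calls, signal over background of single arrays limits how far values near log2 5 can be read.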
